A study of Danio rerio with 6 samples.

Results

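The Egr, Fos and Jun immediate early genes were examined in hair cells of the adult zebrafish inner ear and in the cells around them. Of 10 gene names in the set, 9 matched a row of the deposited expression table exactly, out of 31387 gene rows in all. They were egr1, egr2a, egr2b, egr3 and EGR4 of the Egr family, fosb and fosl1a of the Fos family, and junba and junbb of the Jun family. The name fosab had no row of its own. The table holds 2 rows named fosab_1 and fosab_2 instead, and their values are given beside the set. The set was chosen by its RPKM in hair cells and surrounding cells, with the differences between them already known. That comparison is therefore given as a description of the members. No p-value is printed for it, and nothing is read from the calls given below. All 9 genes reached 1 RPKM (reads scaled to the length of the gene model and to the mapped reads of the library) in at least 1 biological sample, and were among the 15803 genes tested.

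The hair cells were GFP-positive cells of Tg(pou4f3:GAP-GFP)s273t fish, in which the promoter of the hair cell transcription factor gene pou4f3 drives a membrane-bound fluorescent protein. The surrounding cells were GFP-negative cells labelled with the same strain. Both came from the pooled lagena, utricle and saccule of females 11 to 13 months old, and 2000 cells were taken per sample. There were 2 biological samples of hair cells, called replicates 1 and 2, and 1 of surrounding cells, so the surrounding cells have no replicate spread. Each sample was sequenced as 2 technical replicates, which were averaged and counted as 1 sample. The column names of each pair share 1 tag and differ only in what reads as a lane number. Each technical replicate is called a library below, although a pair may be 1 library read on 2 lanes. The names of the surrounding cell columns include an unexplained WT, and share their prefix with hair cell replicate 1 and not with replicate 2.

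Immediate early genes are transcribed within minutes of a stimulus without new protein synthesis. Egr proteins are zinc finger transcription factors. Fos and Jun proteins are leucine zipper factors that pair with each other to form AP-1. Growth factors, calcium entry, depolarization, injury and handling of tissue are all known to induce these genes, and in neurons they are used as a record of recent activity. Several encoded proteins feed back on the response, including the Nab corepressors, which bind Egr proteins, and the Jdp2 and Atf3 factors, which repress many AP-1 targets in mammals.

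The mapped reads ranged from 15843692 to 51566819 per library, and replicate 2 of the hair cells was sequenced 3.21-fold deeper than replicate 1. Whole reads could be recovered from the steps between RPKM values, so the reads behind each value are known up to a factor common to all libraries. Where that factor is above 1, the true counting intervals are narrower than those given. The labels held in the transcripts that define hair cells. All 8 hair cell markers were far higher in hair cells, with summed levels of 1181 and 1026 RPKM in hair cell replicates 1 and 2, against 2.13 RPKM in the surrounding cells. The surrounding cells carried markers of several cell types. Summed levels in hair cell replicates 1 and 2 and the surrounding cells were 497 and 567 against 11963 RPKM for 6 epithelial markers. For 8 leukocyte markers they were 68.7 and 51.1 against 1073 RPKM. Nearly all of the surrounding sum there was cd74a, at 31.9 and 22.5 against 822 RPKM, and cd74b, at 3.51 and 4.22 against 234 RPKM. For 6 fibroblast markers they were 60.1 and 56.6 against 428 RPKM. Most of that was dcn in every sample, at 57.3 and 54.8 against 327 RPKM. For 6 endothelial markers the sums were 1.68 and 0.813 against 28.7 RPKM. The leukocyte marker lyz went the other way, with 31.4 and 22.2 RPKM in hair cells, against 0.722 RPKM in the surrounding cells. Markers of red blood cells and glia were present in the hair cell samples too. They summed to 330 and 131 against 407 RPKM for red blood cells, and 72.4 and 55.98 against 88.8 RPKM for glia. The 6 neuron markers summed to 27.2 and 28.9 against 6.14 RPKM, but differed in direction. Only 2 of them reached 1 RPKM in any biological sample, 1 higher and 1 lower in hair cells by mean log2 difference. Of the others, elavl3, elavl4 and neurod1 were lower in both hair cell replicates than in the surrounding cells, all under 1 RPKM. The part of other cell types in the levels of the immediate early genes was not tested. In such bulk samples, fewer cells of a type and less RNA per cell cannot be told apart.

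The hair cell samples held more of the set than the surrounding cells did, but not of every gene. The levels of the 9 genes summed to 1108 and 1161 RPKM in hair cell replicates 1 and 2, against 455 RPKM in the surrounding cells. Of the 9 genes, 6 were higher in both hair cell replicates than in the surrounding cells, egr3 and fosl1a were lower in both, and egr2b lay on either side. The median difference of the 9 genes in log2(RPKM + 1) was 1.54, beside a median of 0.15 over all genes tested. A gene was called where limma gave an adjusted p below 0.05 and the log2 difference was 1 or more in size. By that rule 5 members (egr1, egr2a, EGR4, fosb and junbb) were called higher and 0 lower, against 17.7% higher and 18.0% lower among all genes tested. Because the members were chosen on this contrast, their calls are a description and nothing is read from the count. With no filter on low values 3 members were called higher, where 5.52% of all genes were higher and 6.56% lower. The share of all genes called higher and lower was 17.8% and 15.1% with a pseudocount of 0.1 RPKM, 10.1% and 7.75% with one of 5 RPKM, and 32.1% and 20.3% with a filter of 5 RPKM. It was 14.6% and 21.6% with median-ratio scaling, and 20.0% and 15.5% after leaving out mitochondrially encoded genes. It was 15.6% and 16.9% with the technical 1 columns alone, 15.8% and 16.5% with the technical 2 columns alone, and 18.4% and 21.2% in the fit of recovered reads with precision weights (limma-voom).

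**Figure D1:**
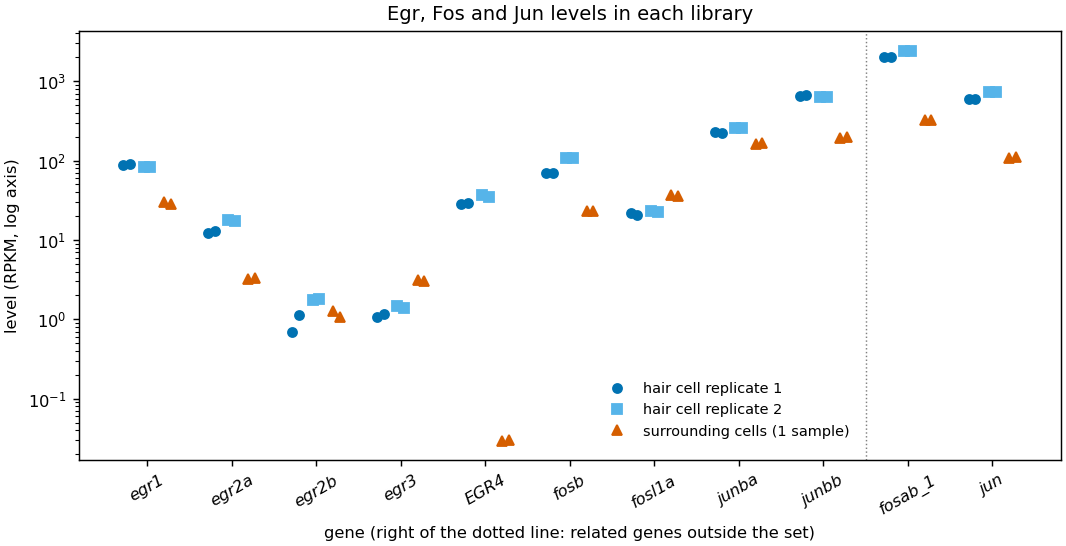
RPKM (log axis) of the 9 genes of the set, and of fosab_1 and jun right of the dotted line, in the 6 technical columns. Circles and squares are the technical replicates of hair cell replicates 1 and 2, and triangles those of the surrounding cells. EGR4 shows the widest gap, at 28.6 and 35.9 RPKM in hair cells, against 0.0298 RPKM in the surrounding cells, while egr3 and fosl1a lie lower in hair cells.

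Among the Egr genes, egr1 was the most abundant in every sample. It encodes the best known member of the family, a factor induced by growth factors and by neuronal activity. The transcript of egr1 (ENSDARG00000037421, chromosome 14) was measured at 89.0 and 82.9 RPKM in hair cell replicates 1 and 2, from 8961 and 26791 reads, and at 28.9 RPKM in the surrounding cells, from 3137 reads. Both hair cell values lay above the surrounding value, by 3.08-fold and 2.87-fold, and they were closer to each other than to it. The mean was 85.9±4.29 RPKM (s.d., n = 2).

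EGR4 was the member that separated the cell types most. Its product binds the same GC-rich sites as other Egr proteins, but it lacks the stretch through which the others bind Nab corepressors. The gene (ENSDARG00000077799, chromosome 23) had 28.6 and 35.9 RPKM in the hair cell replicates, from 1783 and 7186 reads. In the surrounding cells it had 0.0298 RPKM, from 2 reads, 1 in each technical replicate. Reads pooled over the hair cell samples and scaled to depth were 1147-fold those of the surrounding cells, with a counting interval (95%, exact binomial) of 318 to 9475 that covers counting error only. There were 1515 genes of at least 25 RPKM in both hair cell replicates, and EGR4 was among the 16 of them under 0.1 RPKM in the surrounding cells. Both cut-offs were set around the values of EGR4, so its own place there was fixed and only the count of such genes is informative. On the log2(RPKM + 1) scale it differed by 4.85 and 5.16, and the mean of these ranked 148 from the highest of 15803 genes. The size of that mean depended on the pseudocount, at 7.95 with 0.1 RPKM and 2.88 with 5 RPKM. With limma-voom on recovered reads it was 9.77.

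The Egr2 paralogs differed from each other. Egr2, also called Krox20, patterns the hindbrain and drives myelination by Schwann cells. The paralog egr2a (ENSDARG00000044098, chromosome 17) had 12.6 and 17.5 RPKM in hair cell replicates 1 and 2, against 3.27 RPKM in the surrounding cells, where 261 reads supported the value. Both replicates were above the surrounding cells, by 3.86-fold and 5.36-fold. The paralog egr2b (ENSDARG00000042826, chromosome 12) was near the lower end of what was tested, at 0.907 and 1.79 RPKM in hair cells, against 1.17 RPKM in the surrounding cells. Its surrounding value fell between the hair cell replicates, so no direction can be given for it. The level of egr2a was thus 13.9 and 9.79 times that of egr2b in hair cell replicates 1 and 2, against 2.78 times in the surrounding cells. A further row named EGR2 (3 of 3), also on chromosome 17, had 0.169 and 0.0529 RPKM in hair cells, against 0.0786 RPKM in the surrounding cells, and did not reach 1 RPKM.

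The gene egr3 went the other way. In mice Egr3 is needed for muscle spindles and is induced by activity in the brain. Zebrafish egr3 (ENSDARG00000089156, chromosome 8) was measured at 1.13 and 1.42 RPKM in hair cell replicates 1 and 2, from 117 and 475 reads, and at 3.09 RPKM in the surrounding cells, from 346 reads. Both hair cell values were below the surrounding value, which was 2.42 times their mean, and the differences on the log2(RPKM + 1) scale were -0.94 and -0.76.

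The Egr genes together summed to 132 and 140 RPKM in hair cell replicates 1 and 2, against 36.5 RPKM in the surrounding cells. EGR4 took 21.6% and 25.7% of that sum in hair cell replicates 1 and 2, against 0.0817% in the surrounding cells. The share of egr3 was 0.852% and 1.02% in hair cells, against 8.47% in the surrounding cells, and that of egr1 was 67.3% and 59.4% in hair cells, against 79.3% in the surrounding cells. These shares are ratios within a sample and do not depend on how samples are scaled to each other.

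The Fos genes of the set went in opposite directions. The gene fosb (ENSDARG00000055751, chromosome 18) encodes a full AP-1 subunit, whose mammalian splice form lacking the end of the protein accumulates in neurons after repeated stimulation. It had 70.09 and 107 RPKM in the hair cell replicates, from 5702 and 27959 reads, and 22.9 RPKM in the surrounding cells. Both replicates were above the surrounding cells, by 3.06-fold and 4.67-fold, but they stood apart from each other (88.6±26.2 RPKM, s.d., n = 2). The gene fosl1a (ENSDARG00000015355, chromosome 14), whose mammalian counterpart Fra-1 is prominent in epithelial and migrating cells, had 21.2 and 23.1 RPKM in hair cell replicates 1 and 2, against 36.4 RPKM in the surrounding cells. Both hair cell values were below the surrounding value, which was 1.64 times their mean. The level of fosb was 3.31 and 4.63 times that of fosl1a in hair cell replicates 1 and 2, against 0.631 times in the surrounding cells.

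The row fosab_1 (ENSDARG00000031683, chromosome 20) carried most of the Fos signal, although its name kept it out of the set. Zebrafish fosab is the ortholog of mammalian c-Fos, the founding member of the family. The row had 2006 and 2413 RPKM in hair cell replicates 1 and 2, against 321 RPKM in the surrounding cells. By level it ranked 17 and 15 among the genes tested in hair cell replicates 1 and 2, against 133 in the surrounding cells. Its differences on the log2(RPKM + 1) scale were 2.64 and 2.91. The row fosab_2, also on chromosome 20, was listed at 0 in all 6 libraries. Both rows are named for the same gene, and how reads were split between them is not known. Of the summed level of the Fos rows, fosab_1 took 95.4% and 94.6% in hair cells, against 78.9% in the surrounding cells.

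The JunB paralogs were the most abundant genes of the set. JunB pairs with Fos proteins and is a weaker activator than c-Jun at many sites. The paralog junbb (ENSDARG00000104773, chromosome 3) had 658 and 635 RPKM in the hair cell replicates, from 29504 and 91355 reads, and 195 RPKM in the surrounding cells, from 9391 reads. Both replicates lay above the surrounding cells, by 3.38-fold and 3.26-fold, and differed little from each other (647±16.3 RPKM, s.d., n = 2). The paralog junba (ENSDARG00000074378, chromosome 1) had 226 and 256 RPKM in hair cells, against 164 RPKM in the surrounding cells. Both values were higher than in the surrounding cells, by 1.38-fold and 1.56-fold. The size of this difference depended on scaling, with a mean log2 difference of 0.549 in the fit as reported and 0.265 with median-ratio scaling. The level of junbb was 2.91 and 2.48 times that of junba in hair cell replicates 1 and 2, against 1.19 times in the surrounding cells.

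**Figure D2:**
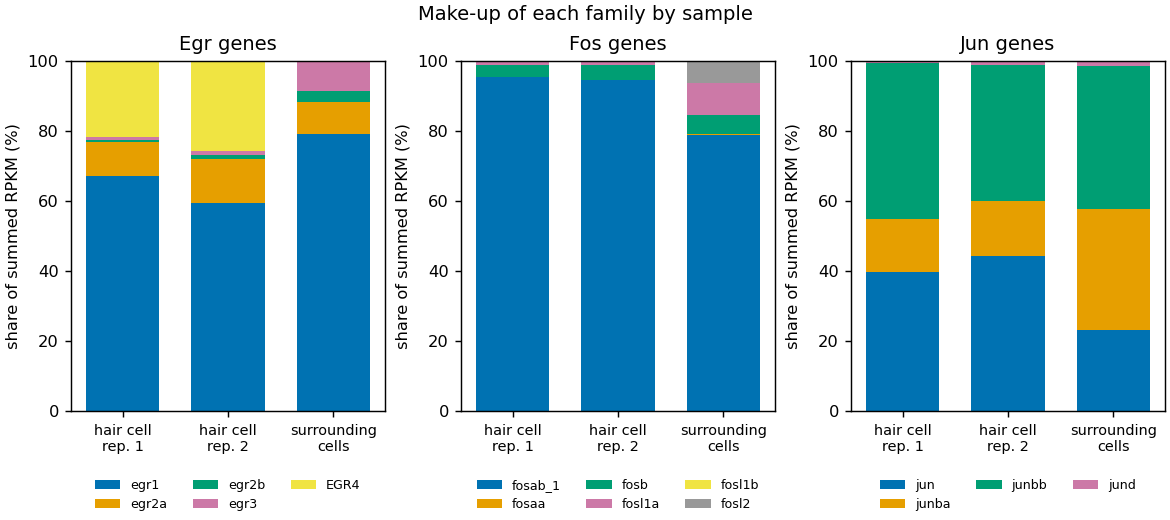
Share of each gene in the summed RPKM of the Egr, Fos and Jun genes (percent), with 1 bar for each hair cell replicate and 1 for the surrounding cells; the Fos and Jun panels include rows outside the set. EGR4 takes 21.6% and 25.7% of the Egr sum in hair cells, against 0.0817% in the surrounding cells, and jun takes 39.8% and 44.4% of the Jun sum in hair cells, against 23.3% in the surrounding cells.

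The order of the levels differed between the cell types. In both hair cell replicates junbb was followed by junba, then by egr1 and fosb, and then by EGR4, fosl1a and egr2a, with egr2b and egr3 last. The genes egr1 and fosb changed places between the replicates, with fosb at 0.788 times egr1 in replicate 1 and 1.29 times in replicate 2, so their order is within the spread. The same held for egr2b and egr3. In the surrounding cells fosl1a came next after junbb and junba, and was followed by egr1, fosb, egr2a, egr3, egr2b and EGR4. By rank among the genes tested, junbb stood at 47 and 59 in hair cell replicates 1 and 2, against 198 in the surrounding cells. The gene egr1 stood at 503 and 593 in hair cells, against 1132 in the surrounding cells, and fosl1a at 1900 and 1898 in hair cells, against 875 in the surrounding cells.

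How far replicates 1 and 2 of the hair cells lay apart was examined for each member, since that spread limits every statement above. Replicate 2 was higher than replicate 1 for 7 of 9 members, with egr1 and junbb the exceptions, against 52.3% of all genes tested. The ratio of replicate 2 to replicate 1 in reads scaled to depth was widest for egr2b, at 1.97 (counting interval 1.51 to 2.62), followed by fosb at 1.53 (1.49 to 1.57) and egr2a at 1.39 (1.29 to 1.49). It was 0.932 (0.910 to 0.954) for egr1 and 0.965 (0.952 to 0.978) for junbb. None of the 9 members was 2-fold apart, as 2.66% of all genes tested were on the log2(RPKM + 1) scale. Of the 755 genes within 2-fold of the hair cell level of fosb, 9.93% were at least as far apart between the replicates. For egr2a and EGR4 the shares were 24.4% of 3411 genes and 39.8% of 1836. Since 1 sample was compared with 1, these intervals compare libraries and cover counting error only.

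**Figure D3:**
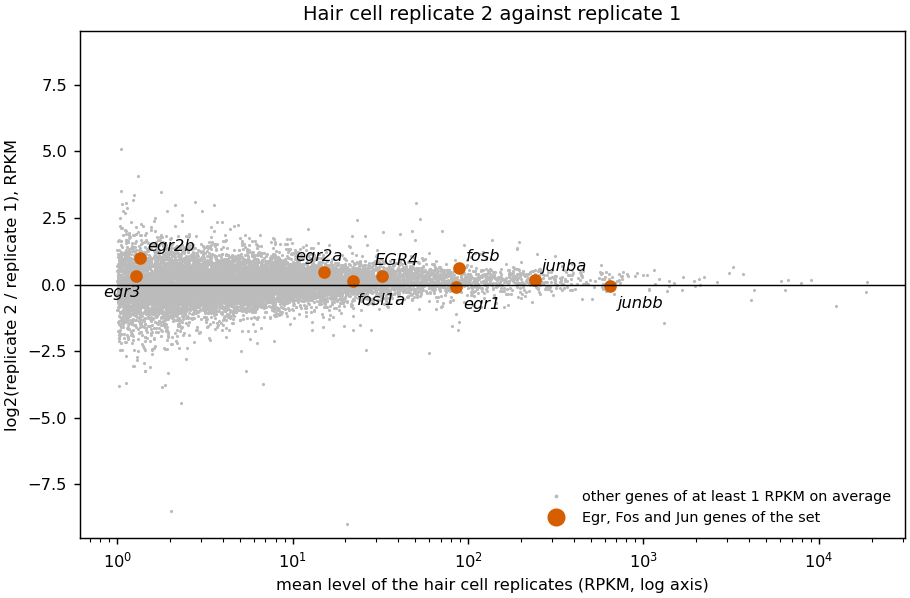
Ratio of hair cell replicate 2 to replicate 1 in RPKM (log2) against their mean level (RPKM, log axis) for genes of at least 1 RPKM on average; orange circles are the 9 genes of the set and grey dots the others. The set lies within the band of the other genes, with fosb toward its upper edge at 0.61 and junbb at -0.05.

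For the members, the technical replicates of a sample differed by about sampling noise. If they are lanes of the same library, this says nothing about library preparation. Of 27 comparisons, 9 members in 3 samples, only EGR4 in hair cell replicate 2 gave an exact binomial p under 0.05 (two-sided p = 0.001278, adjusted over the 27 p = 0.03451). It had 3757 and 3429 reads there, a difference of 7.92% after scaling to depth. The gap is small beside that between the cell types.

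Among relatives and partners of the set, jun and jdp2b were higher in hair cells and fosl2, mafk and nab1b lower. Of 20 names of relatives and partners, 17 had a row and 11 were tested, of which limma called 2 (18.2%) higher in hair cells and 3 (27.3%) lower, beside 17.7% and 18.0% of all genes. The median log2 difference of the 11 was -1.03. The gene jun, for the AP-1 subunit c-Jun, had 591 and 726 RPKM in hair cell replicates 1 and 2, against 111 RPKM in the surrounding cells. It differed by 2.55±0.26 on the log2 scale (SE; limma adjusted p = 0.009856). The gene jdp2b, whose mammalian counterpart represses AP-1 targets, had 420 and 369 RPKM in hair cells, against 92.8 RPKM in the surrounding cells. It differed by 2.07±0.23 on the log2 scale (SE; limma adjusted p = 0.01111). Both passed under all 10 settings of the test that were run. The technical replicates of jdp2b in the surrounding cells differed beyond sampling noise, with 88.1 and 97.5 RPKM. Its paralog jdp2a went the other way at a low level and was not called. Levels of jdp2a were 0.638 and 0.293 RPKM in hair cell replicates 1 and 2, against 1.23 RPKM in the surrounding cells. Its differences on the log2(RPKM + 1) scale were -0.45 and -0.79.

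The genes called lower in hair cells were fosl2, mafk and nab1b. The gene fosl2, for the Fos relative Fra-2, had 3.91 and 7.08 RPKM in hair cell replicates 1 and 2, against 25.5 RPKM in the surrounding cells. It differed by -2.07±0.41 on the log2 scale (SE; limma adjusted p = 0.03299). Like fosl1a, it thus had its higher level in the surrounding cells, whereas fosb and fosab_1 had theirs in hair cells. The call for fosl2 was lost with no filter and with the technical 2 columns alone. The small Maf gene mafk differed by -1.72 and nab1b, an Egr corepressor gene, by -1.27, with 0.542 and 0.358 RPKM in hair cells, against 2.48 RPKM in the surrounding cells. The call for nab1b was lost with no filter and with a pseudocount of 5 RPKM.

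Other partners did not pass the test by limma, although limma-voom called jund higher and nab1a, atf3 and maff lower. The small Maf gene maff had 11.8 and 17.0 RPKM in hair cell replicates 1 and 2, against 35.3 RPKM in the surrounding cells. Its differences on the log2 scale were -1.51 and -1.01. The corepressor gene nab1a had 0.471 RPKM and 0 in hair cell replicates 1 and 2, against 1.48 RPKM in the surrounding cells (limma adjusted p = 0.06851), and nab2 stayed under 1 RPKM in every sample. The stress-induced factor gene atf3 had 9.59 and 16.2 RPKM in hair cells, against 31.0 RPKM in the surrounding cells (limma adjusted p = 0.08333). The Jun gene jund had 9.94 and 15.98 RPKM in hair cells, against 6.02 RPKM in the surrounding cells (limma adjusted p = 0.1295). The second c-Fos paralog, fosaa, was near 1 RPKM, with 1.21 and 0.883 RPKM in hair cells, against 0.599 RPKM in the surrounding cells (limma adjusted p = 0.2402).

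**Figure D4:**
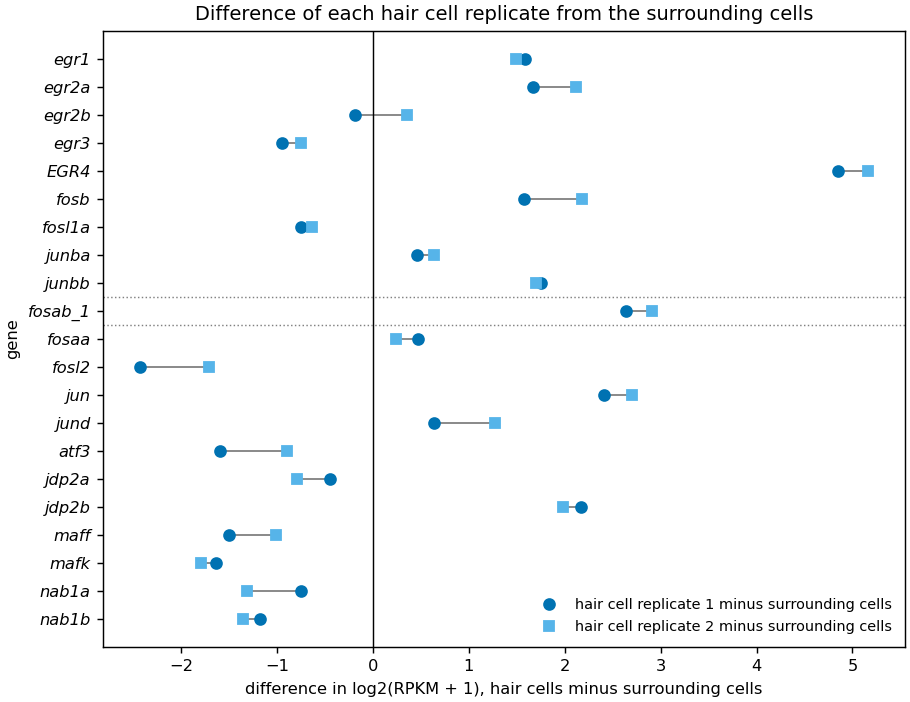
Difference in log2(RPKM + 1) of hair cell replicate 1 (circles) and replicate 2 (squares) from the surrounding cells, for the set at the top, fosab_1 between the dotted lines and the tested relatives and partners below. The pairs of egr1, egr2a, EGR4, fosb, junbb, fosab_1, jun and jdp2b lie right of 1 in both replicates, while fosl2, mafk, nab1b and maff lie left of -1.

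The genes next to the members were looked up to see whether they shared the difference. In the gene order of the RefSeq assembly GRCz12tu, the protein-coding genes next to fosab are si:ch211-153j24.3 and batf. The row fosab_1 was higher in hair cells, whereas batf had 0.125 and 0.194 RPKM in hair cells, against 0.434 RPKM in the surrounding cells. The gene si:ch211-153j24.3 differed by 0.15 on the log2 scale. Beside egr1, the gene reep2 was called higher with a difference of 3.55, and smim19 was not called with 0.75. Beside junba, prdx2 was called higher with 2.03, at 399 and 491 RPKM in hair cells, against 108 RPKM in the surrounding cells. Other tested neighbours, of egr2b, egr3 and fosl1a, were not called. Of all genes tested, 17.7% were called higher. Members egr2a, EGR4, fosb and junbb had no tested neighbour. Neither neighbour of egr2a or junbb had a row of its name, nor did pebp4 beside egr3, si:ch73-290k24.5 beside EGR4 and si:ch211-160d20.3 beside fosb. Beside fosb, capn12 had 0.422 and 0.653 RPKM in hair cells, against 0.293 RPKM in the surrounding cells. Beside junba, dand5 had 0.0481 RPKM and 0, against 0.315 RPKM. The gene cyp17a2, next to EGR4, had 0 and 0.0188 RPKM in hair cells, against 0.0557 RPKM in the surrounding cells.

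Among other immediate early genes, more were called lower in hair cells than higher. This list, like the other gene lists, was chosen with earlier results of these data known, so its counts are a description. Of 59 names, 50 had a row and 46 were tested, and limma called 5 of them (10.9%) higher in hair cells and 19 (41.3%) lower, beside the 17.7% and 18.0% of all genes. Their median log2 difference was -0.30 and their levels summed to 1956 and 2509 RPKM in hair cell replicates 1 and 2, against 3844 RPKM in the surrounding cells. The fit of recovered reads called 8 higher and 19 lower, beside 18.4% and 21.2% of all genes. With no filter the counts were 3 and 8, beside 5.52% and 6.56% of all genes.

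The called genes with the largest differences toward hair cells were bdnf, socs3a, trib1 and ier5. The neurotrophin gene bdnf, which neurons transcribe in response to calcium entry, had 33.8 and 34.8 RPKM in hair cell replicates 1 and 2, against 0.445 RPKM in the surrounding cells. It differed by 4.61±0.22 on the log2 scale (SE; limma adjusted p = 0.0072). The cytokine feedback gene socs3a had 116 and 138 RPKM in hair cells, against 38.2 RPKM in the surrounding cells, and the pseudokinase gene trib1 had 3.97 and 4.09 RPKM in hair cells, against 0.564 RPKM in the surrounding cells. The technical replicates of socs3a differed beyond sampling noise, with 102 and 130 RPKM in hair cell replicate 1 and 32.3 and 44.1 RPKM in the surrounding cells. The call for socs3a was lost with no filter and that for trib1 with a pseudocount of 5 RPKM. The gene ier5 differed by 1.26, and its call held under 4 of the 10 settings.

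Toward the surrounding cells, the largest differences belonged to klf2a, ctgfa, klf2b and ptgs2a. The Krüppel-like factor gene klf2a, which fluid flow induces in endothelium, had 1.64 and 2.27 RPKM in hair cell replicates 1 and 2, against 410 RPKM in the surrounding cells, and differed by -7.13±0.26 (SE) on the log2 scale. Its paralog klf2b had 0.0608 and 0.383 RPKM in hair cells, against 44.1 RPKM in the surrounding cells. The matricellular gene ctgfa, a target of serum and of Yap signalling, had 3.75 and 2.32 RPKM in hair cells, against 544 RPKM in the surrounding cells. The cyclooxygenase gene ptgs2a had 0.542 and 0.708 RPKM in hair cells, against 51.9 RPKM in the surrounding cells. All 4 were called lower under all 10 settings. Of other classes, btg2, nr4a1 and dusp1, chosen after their values were seen, were not called. The gene btg2 had 114 and 109 RPKM in hair cells, against 108 RPKM in the surrounding cells. The gene nr4a1 lay on either side, at 28.1 and 48.5 RPKM in hair cells, against 30.5 RPKM in the surrounding cells. Levels of dusp1 were 47.3 and 81.1 RPKM in hair cells, against 39.8 RPKM in the surrounding cells. Of the other tested Dusp genes, dusp5 and dusp6 were called lower in hair cells, whereas dusp2 and dusp4 were not called. Hair cell replicates 1 and 2 had 5.13 and 7.94 RPKM of dusp5, against 27.6 RPKM in the surrounding cells. For dusp6 they had 10.2 and 8.22 RPKM, against 30.9 RPKM in the surrounding cells. Both calls were lost with no filter.

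The activity-linked genes npas4a and npas4b, also chosen after their values were seen, were nearly silent in all samples. The gene npas4a had 0.119 and 0.0433 RPKM in hair cells, against 0.203 RPKM in the surrounding cells. The gene npas4b had 0.0191 and 0.185 RPKM in hair cells, against 0.178 RPKM in the surrounding cells. In mammalian neurons Npas4 is induced selectively by calcium entry.

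**Figure D5:**
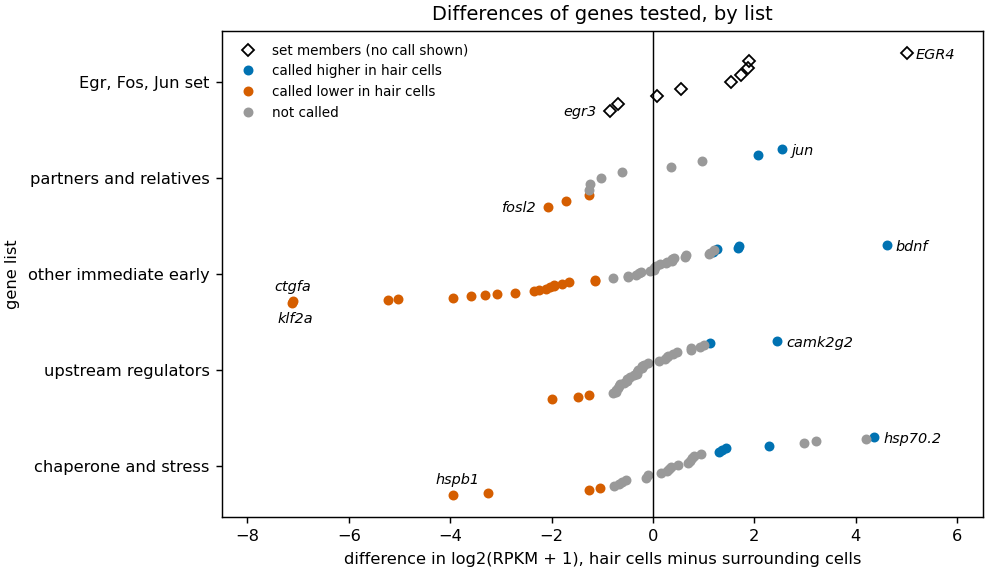
Mean difference in log2(RPKM + 1), hair cells minus surrounding cells, of each tested gene in 5 lists; open diamonds are the set, shown without calls, and filled circles are coloured by the limma call. In the list of other immediate early genes 19 of 46 lie at the left as called lower and 5 at the right as called higher.

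The genes that transmit signals to the immediate early promoters included calmodulin-dependent kinases on both sides. Of 42 names, among them the serum response factor, its Elk and Mkl partners, Creb and the Map, Rsk and calcium-dependent kinases, 40 had a row and 33 were tested. Limma called 2 (6.06%) higher in hair cells, camk2g2 and camk2g1, and 3 (9.09%) lower, camk2d1, map2k1 and crtc1a, beside 17.7% and 18.0% of all genes, and the median log2 difference was -0.29. The call for camk2g1 was lost under 3 of the 10 settings, and those for map2k1 and crtc1a under 2. That for camk2d1, which was tested under 9 settings, was lost with a pseudocount of 5 RPKM. The calmodulin-dependent kinase gene camk2g2 had 68.9 and 61.2 RPKM in hair cell replicates 1 and 2, against 11.1 RPKM in the surrounding cells, and differed by 2.45±0.21 (SE) on the log2 scale. Its relative camk2d1 had 0.171 and 0.215 RPKM in hair cells, against 3.72 RPKM in the surrounding cells, and differed by -1.99 on the log2 scale. The serum response factor gene srfa, added to the named genes after its values were seen, had 1.03 and 1.42 RPKM in hair cells, against 0.594 RPKM in the surrounding cells, and was not called.

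Chaperone and stress genes were called about as often as all genes. Of 28 tested, limma called 5 (17.9%) higher in hair cells and 4 (14.3%) lower, beside 17.7% and 18.0% of all genes, with a median log2 difference of 0.42. The called genes with the largest differences were hsp70.2, hsp90aa1.2, ddit3 and hspa8 toward hair cells and hspb1, hspb8, gadd45aa and txnipa toward the surrounding cells. The calls for ddit3 and gadd45aa were lost under 4 of the 10 settings, that for txnipa under 3, that for hspa8 under 2 and that for hsp70.2 with no filter. The inducible chaperone gene hsp70.2 had 46.1 and 85.9 RPKM in hair cell replicates 1 and 2, against 2.11 RPKM in the surrounding cells. The related rows hsp70.1, hsp70.3 and hsp70l were chosen after their values were seen. Limma called none of them, but limma-voom called each higher in hair cells. The row hsp70.1 had 11.0 and 90.7 RPKM in hair cell replicates 1 and 2, against 2.55 RPKM in the surrounding cells. The row hsp70.3 had 16.5 and 89.8 RPKM in hair cells, against 1.16 RPKM in the surrounding cells. The row hsp70l had 96.7 and 293 RPKM in hair cells, against 20.5 RPKM in the surrounding cells. The technical replicates of hsp70.2 also differed beyond sampling noise in both hair cell samples. They had 49.4 and 42.8 RPKM in replicate 1 and 89.9 and 81.8 RPKM in replicate 2. Those of hsp70.3 differed in hair cell replicate 2, at 93.9 and 85.7 RPKM, and in the surrounding cells, at 0.785 and 1.54 RPKM. Those of hsp70.1 differed in both hair cell samples, at 9.73 and 12.2 RPKM in replicate 1 and 88.4 and 93.0 RPKM in replicate 2. The near-identical hsp70 copies may share reads, so their single values are uncertain. Between the hair cell replicates, 5 of the 28 stress genes (17.9%) were at least 2-fold apart, beside 2.66% of all genes tested. The counts were 0 of 9 members and 2 of 46 (4.35%) other immediate early genes. Of those 5 stress genes, hsp70.1, hsp70.3, hsp70l and dnajb1b were higher in replicate 2. The gene ddit4 was lower there, with 23.0 and 9.43 RPKM in replicates 1 and 2. Replicate 2 was the higher one for 7 of 9 members, but not for egr1 and junbb, beside 52.3% of all genes tested. The part of the hsp70 genes in the levels of the members was not tested.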

How the data were processed

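RNA sequencing libraries came from 3 biological samples with 2 technical replicates each, grouped by the sample titles. The deposited RPKM values were made by the authors from reads mapped to GRCz10, per the submitters' processing notes. The sources used here give no aligner, counter, annotation or strand setting, so overlapping or antisense genes cannot be told apart. Per the labels, a Qiagen miRNeasy kit and Clontech SMART-Seq amplification were used. Columns of the authors' means and standard deviations were not used. Technical replicates were averaged. Hair cells were compared with surrounding cells by limma 3.58.1 (R 4.3.3, moderated variance with trend) on log2(RPKM + 1), a scale that understates the change of low genes, over 15803 genes of at least 1 RPKM in at least 1 biological sample. Calls needed a value below 0.05 in limma after Benjamini-Hochberg adjustment and an absolute log2 difference of 1 or more. The fit had 1 residual degree of freedom, so the lone surrounding sample was assumed to vary like the hair cells, and nothing says whether samples came from separate animals.

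Reads were recovered as whole multiples of the value of 1 read, within 0.001 of a read, for all 15803 genes tested. Of 4273 low genes used to find the mapped totals, 99.0% had a whole length. Reads may be too low by a factor common to all libraries, and counting intervals cover counting error only, since reads were not collapsed to molecules. Members and gene lists were chosen with earlier results of these data known. Named were all members and, of each other list, the called genes with the largest differences (up to 4 each way) and the direct partners of the members. Alternatives covered pseudocounts, filters, scaling, technical columns, single hair cell replicates and limma-voom on recovered reads, which called 2907 genes higher in hair cells and 3347 lower.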

Additional observations from a re-analysis of the deposited data

How the results depend on the processing

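The directions of egr1, egr2a, EGR4, fosb, junba and junbb (higher in hair cells) and of egr3 and fosl1a (lower) were the same under every alternative run that gave a value, whereas egr2b ran from -0.19 to 0.36 on the log2 scale. The median difference of the members, 1.54 in the fit as reported, was 1.27 with a pseudocount of 5 RPKM, 1.26 with median-ratio scaling, and 1.73 with a filter of 5 RPKM or after leaving out mitochondrially encoded genes. It was 1.49 without replicate 1 of the hair cells and 1.57 without replicate 2, where no test was possible. Median-ratio scaling shifted the log2 difference of the median gene by -0.29 before the pseudocount, and low genes by less. Members called higher fell to 3 with no filter, where 5.52% of all genes were higher. With median-ratio scaling 1 member, egr3, was called lower, beside 21.6% of all genes. The members were chosen on this contrast, so nothing is read from these counts. Over all genes, 2799 were called higher and 2851 lower. These counts were 1603 and 1225 with a pseudocount of 5 RPKM and 1464 and 1740 with no filter, and 1713 were lower with a filter of 5 RPKM. Higher genes were 49.5% of all calls as reported, against 61.3% with a filter of 5 RPKM, 40.3% with median-ratio scaling, 56.3% after leaving out mitochondrially encoded genes and 56.7% with a pseudocount of 5 RPKM.

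With a pseudocount of 5 RPKM, 3 other immediate early genes, 1 upstream gene and 3 stress genes were called higher. Called lower were 0 upstream and 2 stress genes, beside 10.1% higher and 7.75% lower of all genes. With no filter the counts were 3, 1 and 1 higher, and 1 partner, 8 other immediate early and 1 upstream gene lower. All genes stood at 5.52% higher and 6.56% lower there. Median-ratio scaling gave 3 other immediate early and 1 upstream gene higher, beside 14.6% of all genes. A filter of 5 RPKM gave 8 stress genes higher, beside 32.1% of all genes. Leaving out mitochondrially encoded genes, or using the technical 1 columns alone, left 2 stress genes lower, beside 15.5% and 16.9% of all genes. The fit of recovered reads called 8 other immediate early and 9 stress genes higher and 6 partners lower, beside 18.4% and 21.2% of all genes. Causes of these shifts were not tested. No paired analysis was possible because the groups share only replicate number 1. Mitochondrially encoded transcripts made up 22.2% and 19.7% of all RPKM in hair cell replicates 1 and 2, against 9.56% in the surrounding cells. The value of EGR4 in the surrounding cells rests on 2 reads, so the size of its ratio is limited by depth.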
